A study of Mustela putorius furo and Mus musculus with 4 samples.

Results

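A set of 10 genes of lipid carriage and lipid export were compared between cultured ferret and mouse astrocytes, to ask whether other lipid carriers followed the difference of Apoe. They were chosen by symbol (Apoe, Clu, Apod, Abca1, Abcg1, Lpl, Lcat, Pltp, Lrpap1 and Sort1), with the low Apoe level of these same ferret libraries already known. Symbols were matched without regard to case, and 8 of the 10 genes were among the 13373 symbols shared by both species. Abca1 and Lcat were read in the mouse libraries alone, and their ferret levels were not analysed here. Each of the genes had a single value per library, so no choice between several values of a symbol was needed. All 8 shared genes had a mean of at least 1 FPKM in one of the species and were among the 10204 genes tested. Since the genes were picked with this contrast in view, their differences are given as a description with a standard error (SE) and without a p-value.

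Astrocytes are the main source of lipoproteins inside the brain, where the particles of the blood do not enter. Cholesterol and phospholipid leave the cell through ABC transporters, are taken up by secreted apolipoproteins, are remodelled in the particle by enzymes and transfer proteins, and reach other cells through lipoprotein receptors. Apolipoprotein E is the best known carrier of this route, and clusterin and apolipoprotein D are the other carriers of the set.

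The 2 ferret libraries came from cortices of normally pigmented sable ferrets at postnatal day 1 and the 2 mouse libraries from cortices of wild-type ICR mice at postnatal day 1 to 3. Glia of both species grew for 14 days in medium with 10% fetal bovine serum, were shaken to remove loosely attached cells, replated, and harvested after some days in a serum-free medium with transferrin, albumin, progesterone and a heparin-binding growth factor. A ferret pup filled several flasks, whereas several mouse pups were pooled in a flask, and no source used here says whether the duplicate libraries came from separate cultures. The p-values for other genes below therefore measure the spread between libraries, which may be technical.

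The values are FPKM, fragments counted per kilobase of a gene's exons and scaled to all fragments mapped in the library. The deposited tables hold no read counts, so the depth of the libraries was not analysed here beyond a ratio between duplicates. Each species was quantified on its own genome and gene models, and species, gene model and culture cannot be told apart in this design. Summed over the shared symbols, FPKM came to 227391 and 236543 in the ferret pair and to 300465 and 308121 in the mouse pair. Differences are ferret minus mouse on the log2(FPKM + 1) scale, where the median of all tested genes stood at -0.35. It stood at -0.01 once the libraries were rescaled to equal sums and at 0.06 after quantile normalization, so small differences have to be read against this shift. The middle 50% of all tested genes lay between -1.18 and 0.42. All 11 astrocyte markers examined had a value above 0 in every library, with Slc1a2, a glutamate transporter, near 0 in the ferret at 0.133 and 0.178 FPKM. The markers summed to 3620 and 3720 FPKM in the ferret and 3312 and 3585 FPKM in the mouse libraries, but Gfap and Aldoc made up most of these sums. Of the 11, 8 had a lower mean in the ferret, and their median log2 difference was -1.16. With an adjusted p of limma under 0.05 and an absolute log2 difference above 1, 6 were called lower and 1 higher (S100b), against 30.1% and 13.1% of all tested genes. Aqp4, the water channel of astrocyte endfeet, stood at 24.8 and 21.8 FPKM against 202 and 210 FPKM, and Aldh1l1, an enzyme of folate metabolism, at 10.1 and 9.60 FPKM against 81.2 and 84.3 FPKM. With the libraries rescaled to equal sums, 4 were called lower and 2 higher, against 21.7% and 19.1% of all tested genes. The part of these marker differences in the results below was not tested.

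The other carriers did not follow Apoe as a group. Apoe and Apod were lower in ferret astrocytes, while Clu stood at nearly the same level in both species. Apoe stood at 11.8 and 12.3 FPKM in the ferret and at 3035 and 3315 FPKM in the mouse libraries. By FPKM it held rank 3 of the 10204 tested genes in both mouse libraries and ranks 3925 and 3884 in the ferret libraries. The mean FPKM was 264-fold higher in mouse astrocytes, a log2 difference of -7.93 (SE 0.064), and this difference was at position 3 from the lowest of all tested genes. Its difference stayed between -8.03 and -7.19 under every alternative that was run. In bulk RNA such as this, fewer cells of a type and less RNA per cell cannot be told apart. Mouse Apoe lies at chr7:19696109-19699188 (GRCm38, minus strand), and no other annotated gene overlaps it.

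Clu encodes clusterin, also named apolipoprotein J, a secreted chaperone that is carried on lipoprotein particles. Its FPKM was 443 and 465 in the ferret and 460 and 492 in the mouse libraries, so the libraries of the species overlapped. The means were 454 ± 15.5 and 476 ± 22.2 FPKM (SD, n = 2 each), a log2 difference of -0.07 (SE 0.064). That value was 0.28 above the median of all genes, and its sign turned to 0.32 with the libraries rescaled to equal sums and to 0.16 after quantile normalization. Clu was among the 54 most abundant of the tested genes in all 4 libraries. The mouse gene lies at chr14:65968483-65981547, plus strand.

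Apod encodes apolipoprotein D, a small carrier of the lipocalin family that binds arachidonic acid and steroids. It had 18.5 and 20.1 FPKM in the ferret and 176 and 193 FPKM in the mouse libraries. All ferret values were below all mouse values, and the mean was 9.55-fold higher in mouse astrocytes, a log2 difference of -3.19 (SE 0.069). Of all tested genes, 3.03% had a lower difference than Apod and 0.0196% had a lower difference than Apoe. Apod therefore shared the direction of Apoe at a far smaller size. The mouse gene lies at chr16:31296192-31314808, minus strand.

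**Figure D1:**
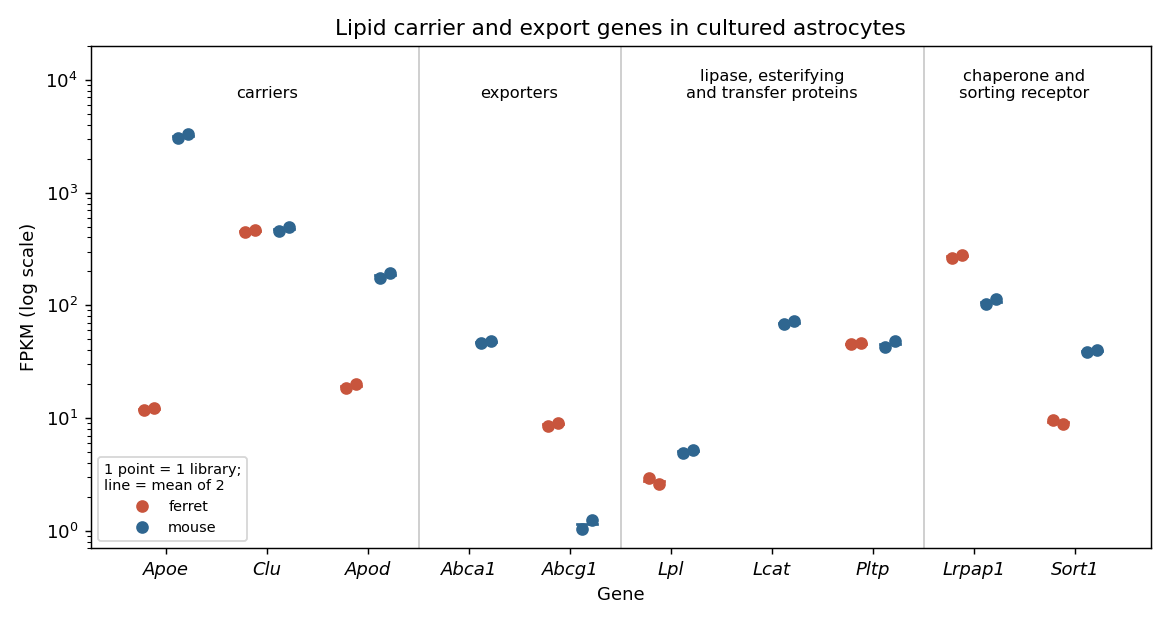
FPKM of the 10 genes (log axis) in each of the 2 ferret and 2 mouse libraries, with 1 point per library and a line at the mean of each species. Apoe lies at 11.8 and 12.3 FPKM in the ferret and at 3035 and 3315 FPKM in the mouse libraries, the points of Clu and Pltp overlap between species, and Abca1 and Lcat are drawn for the mouse alone.

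Ratios of genes within a library do not depend on how libraries are scaled to each other. They rest on the same Apoe values, and Clu was nearly level, so the contrast of Apoe had to reappear there. The ratios are no separate support and still depend on the gene models of each species. For every fragment of Clu per kilobase, the ferret libraries held 0.0266 and 0.0264 of Apoe, and the mouse libraries held 6.59 and 6.74. Of the summed FPKM of Apoe, Clu and Apod, Clu made up 93.6% and 93.5% in the ferret pair and 12.5% and 12.3% in the mouse pair. Apoe made up 2.49% and 2.46% in the ferret and 82.7% and 82.9% in the mouse libraries, so the leading carrier transcript differed between the species. Apod made up 3.90% and 4.04% in the ferret and 4.79% and 4.82% in the mouse libraries, where Apoe dominates the sum, and relative to Clu alone it stood at 0.0416 and 0.0432 in the ferret against 0.382 and 0.392 in the mouse libraries. The 3 carriers together summed to 474 and 498 FPKM in the ferret pair and reached 3671 and 4000 FPKM in the mouse pair. Apoe alone took 0.00519% of the FPKM summed over shared symbols in each ferret library, against 1.01% and 1.08% in the mouse libraries.

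**Figure D2:**
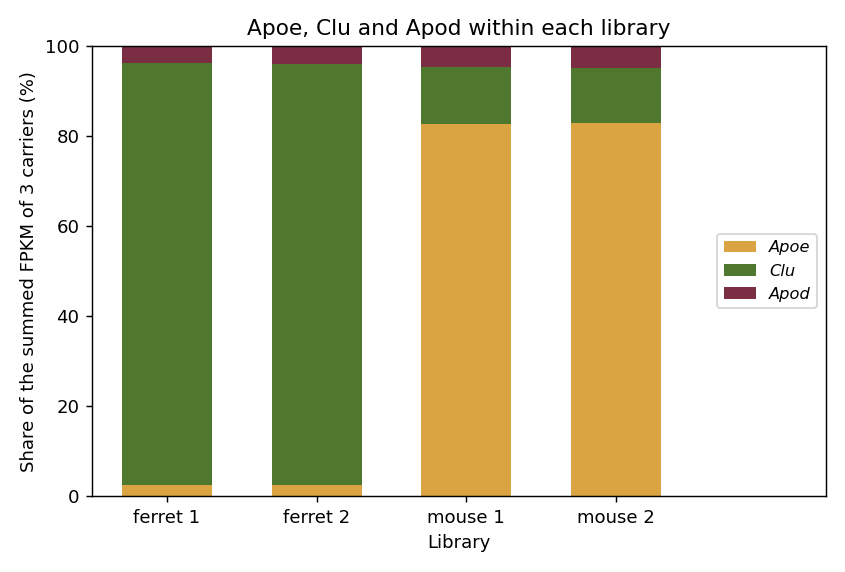
Share of Apoe, Clu and Apod in the summed FPKM of these 3 carriers (%), as 1 stacked bar for each library. Clu fills over 93% of both ferret bars and Apoe over 82% of both mouse bars, with little difference between duplicates.

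Markers of other cell types also differed between the libraries of the species. Of 15 microglial markers, 14 had values in both species, and all 14 had a lower mean in the ferret, with Cx3cr1 listed at 0 in both ferret libraries. They summed to 7.57 and 7.18 FPKM in the ferret and 858 and 831 FPKM in the mouse libraries. C1qa, read in the mouse libraries alone at 193 FPKM in each, is not in these sums. Microglia are themselves known to express Apoe, Lpl, Abca1 and Abcg1. Of 9 meningeal fibroblast markers, 8 were lower in the ferret, and the sums were 123 and 108 FPKM against 1560 and 1536 FPKM. Serpinf1 (630 and 653 FPKM) and Col3a1 (402 and 375 FPKM) made up most of the mouse sums. Slc6a13 of that list was listed at 0 in both mouse libraries. The authors had reported Serpinf1 and Pcolce, and the microglial Tyrobp, C1qb, Ctss, Mpeg1 and Laptm5, as mouse-specific in these data. The direction of these genes was therefore known in advance. Fibroblasts of the meninges and myelinating glia are known sources of Apod. Of 11 oligodendrocyte lineage markers, 10 had values in both species, none was listed at 0 in both libraries of a species, 2 had a lower mean in the ferret, and the sums were 170 and 188 FPKM in the ferret against 69.1 FPKM in each mouse library. Those sums leave out Olig1, which was read in the mouse libraries alone, at 107 and 117 FPKM, and is larger than the mouse sum itself, so they give no order between the species. Of 7 neuronal markers, 5 were read in both species, and no gene was listed at 0 in both libraries of a species. They summed to 26.3 and 25.9 FPKM in the ferret against 31.9 and 33.2 in the mouse libraries. Map2 made up most of these sums, at 18.8 and 19.0 FPKM against 30.4 and 31.3 FPKM. Rbfox3, near 0 in both species, was also lower in the ferret. Syt1 (5.11 and 4.94 against 1.12 and 1.25 FPKM), Dcx and Snap25 had higher means in the ferret, so the sums give no order between the species. Stmn2, read in the mouse libraries alone at 124 and 127 FPKM, is likewise outside these sums, and Tubb3 was not read under its symbol in either species. All 4 endothelial markers had values, and their sums were 0.288 and 0.210 FPKM in the ferret against 23.0 and 23.5 in the mouse libraries, nearly all of it Cdh5, which was listed at 0 in both ferret libraries together with Pecam1. Cldn5 was listed at 0 in both mouse libraries. The part of these cells in the differences of Apoe, Apod and the other genes was not tested.

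The lipid exporter that could be compared was higher in ferret astrocytes. Abcg1 encodes a transporter that passes cholesterol to particles which already hold lipid. It had 8.51 and 9.05 FPKM in the ferret and 1.03 and 1.26 FPKM in the mouse libraries, without overlap. The mean FPKM was 7.67-fold higher in ferret astrocytes, a log2 difference of 2.19 (SE 0.083), which is understated at such low mouse values and became 2.84 with a pseudocount of 0.1. Within the ferret libraries Abcg1 stood at about the level of Sort1, the next gene up in order, and their values overlapped. In the mouse libraries it was the lowest of the 10 genes. Abca1, which loads phospholipid and cholesterol onto lipid-poor apolipoproteins, had 46.6 and 48.0 FPKM in the mouse libraries, well above Abcg1. Mouse Abcg1 lies at chr17:31057675-31117988, plus strand, with a small annotated ribosomal RNA gene inside it, and mouse Abca1 at chr4:53030787-53159895, minus strand.

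The enzymes and transfer proteins of the particle differed by less than 1 on the log2 scale where both species had values. Pltp, the phospholipid transfer protein, had 45.4 and 45.9 FPKM in the ferret and 43.1 and 47.9 FPKM in the mouse libraries. The ferret values lay between the mouse values, and the log2 difference was 0.01 (SE 0.066), or 0.39 with the libraries rescaled to equal sums. Relative to Clu within a library, Pltp was at 0.102 and 0.0986 in the ferret and 0.0935 and 0.0974 in the mouse libraries. Lpl, the lipoprotein lipase that splits triglycerides of particles, was low in both species, with 2.92 and 2.60 FPKM in the ferret and 4.90 and 5.24 FPKM in the mouse libraries. The libraries did not overlap and the log2 difference was -0.69 (SE 0.080), which lies 0.34 below the median of all genes and within the range of their middle 50%. Lcat, the enzyme that esterifies cholesterol on particles, had 68.0 and 72.5 FPKM in the mouse libraries, above Abca1 and Pltp there. Mouse Pltp lies at chr2:164839518-164857711, minus strand and overlaps the protein-coding gene Ctsa on the other strand. The library kit kept the strand, but whether the quantification used it is not given in the sources used here, so reads of the overlapping part of Pltp and Ctsa may not be told apart. Mouse Lpl lies at chr8:68880491-68907448, plus strand, and mouse Lcat at chr8:105939551-105943382, minus strand, with an antisense gene across it.

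The receptor chaperone and the sorting receptor of the set moved in opposite directions. Lrpap1 encodes the receptor-associated protein, a chaperone of the endoplasmic reticulum that keeps newly made lipoprotein receptors from binding ligands too early. It had 265 and 279 FPKM in the ferret and 102 and 114 FPKM in the mouse libraries. All ferret values were above all mouse values, and the mean was 2.52-fold higher in ferret astrocytes, a log2 difference of 1.33 (SE 0.068). Sort1 encodes sortilin, a receptor of the Vps10p family that sorts secreted proteins between the Golgi and the lysosome. It had 9.57 and 8.85 FPKM in the ferret and 38.7 and 40.4 FPKM in the mouse libraries. The libraries did not overlap, and the mean was 4.29-fold higher in mouse astrocytes, a log2 difference of -1.99 (SE 0.066). Mouse Lrpap1 lies at chr5:35091501-35105766, minus strand. Mouse Sort1 lies at chr3:108284082-108361511, plus strand, and is overlapped by an antisense gene and by a further annotated transcript of its own strand.

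The order of levels therefore differed between species. In ferret astrocytes it ran from Clu through Lrpap1, Pltp, Apod, Apoe, Sort1 and Abcg1 to Lpl, and Sort1 and Abcg1 were the neighbours whose duplicates overlapped. In mouse astrocytes it ran from Apoe through Clu, Apod, Lrpap1, Lcat, Abca1, Pltp, Sort1 and Lpl to Abcg1, and Abca1 and Pltp were the neighbours whose duplicates overlapped. Between duplicates, the 8 shared genes differed by at most 0.120 on the log2(FPKM + 1) scale in the ferret and 0.154 in the mouse libraries.

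**Figure D3:**
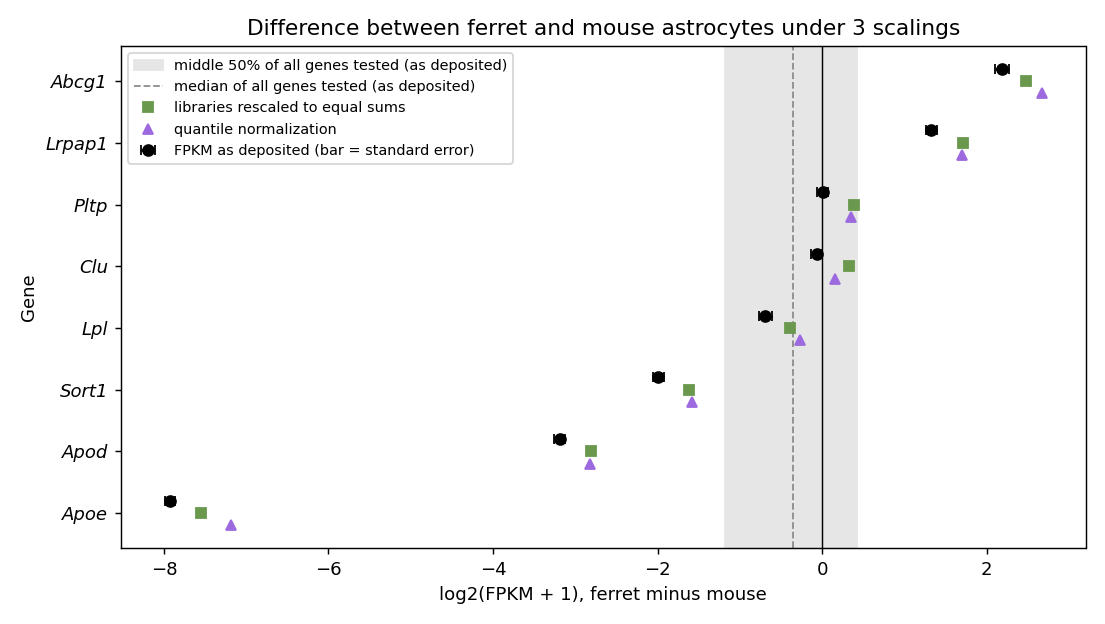
Difference between ferret and mouse astrocytes in log2(FPKM + 1) for the 8 genes with values in both species, with FPKM as deposited (bar, SE), with the libraries rescaled to equal sums and after quantile normalization. The grey band spans the middle 50% of all tested genes, from -1.18 to 0.42, and the dashed line is their median of -0.35, both with FPKM as deposited. Apoe stands far to the left at -7.93, and Clu and Pltp lie at or near 0 and change with the scaling.

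A gene was called when the adjusted p of limma over all tested genes was under 0.05 and the absolute log2 difference was above 1. By this rule 43.2% of all tested genes were called, 13.1% as higher and 30.1% as lower in ferret astrocytes. Of the 8 lipid genes, 2 were called higher (Abcg1 and Lrpap1) and 3 lower (Apoe, Apod and Sort1). Clu, Pltp and Lpl were not called. The libraries of the species did not overlap for 6 of the 8, against 94.1% of all tested genes. The median log2 difference of the 8 genes was -0.38, against -0.35 for all tested genes. The contrast had been used to choose the genes, so nothing is read from these counts. The same numbers of higher and lower genes were called under all the alternatives that were run.

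The 5 other genes with a difference nearest that of Apoe, among 631 tested genes with a mean of at least 100 FPKM in a species, were Tmem176b, Col3a1, Cavin2, Lcn2 and Tmem176a. Their log2 differences over the 4 libraries were -7.58, -7.27, -7.07, -8.85 and -6.94, within 0.99 of Apoe. All 5 had at least 100 FPKM in the mouse libraries, and in the ferret libraries they stood at 1.60 FPKM or less, with Lcn2 and Tmem176a listed at 0 in both. Apoe stood at 11.8 and 12.3 FPKM in the ferret libraries, with a mouse mean of 3175 FPKM. The 5 genes were picked for a like difference and had mouse means of 122 to 461 FPKM. Their lower ferret values therefore follow from the choice and do not set Apoe apart. The differences of genes near 0 depend on the pseudocount, and with 0.1 those of Tmem176b and Lcn2 became -10.4 and -12.2.

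Other genes of lipid transport were then examined from a list of 46 genes, of which 45 were shared by the species and 37 were tested. This list, too, was chosen with earlier results of these data known. Its calls and p-values, here and below, are therefore a description and no independent test. Of these, 9 were called higher and 15 lower in ferret astrocytes by limma with Benjamini-Hochberg adjustment, set against 13.1% and 30.1% of all tested genes. With the libraries rescaled to equal sums, 10 were called higher and 13 lower, against 19.1% and 21.7% of all genes, and after quantile normalization 10 higher and 12 lower, against 20.6% and 20.0%. The median log2 difference of the 37 genes was -0.73 with FPKM as deposited, against -0.35 for all tested genes. It was -0.37 with equal sums and -0.34 after quantile normalization, against -0.01 and 0.06 for all tested genes. The microglial marker sum was 7.18 to 7.57 FPKM in the ferret and 831 to 858 FPKM in the mouse libraries, and the part of such cells in the differences of these genes was not tested either.

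Of the 10 other apolipoproteins, 4 were tested, of which 3 were called lower and 1 higher, against 30.1% and 13.1% of all tested genes. Apoc1 and Apoc2, which regulate lipases and receptor binding and lie in the same gene cluster as Apoe, were lower in ferret astrocytes. Apoc1 had 2.38 and 2.18 FPKM in the ferret and 7.48 and 6.88 FPKM in the mouse libraries (log2 difference -1.32, SE 0.079, adjusted p = 1.21e-07 by limma), and was not called after quantile normalization, at -0.90. Apoc2 was listed at 0 in both ferret libraries and had 4.39 and 3.15 FPKM in the mouse libraries. Apoh, a phospholipid-binding plasma protein, had 0.129 and 0.0759 FPKM in the ferret and 6.52 and 6.78 FPKM in the mouse libraries. Apob, a structural protein of plasma lipoproteins, went the other way, with 2.49 and 2.45 FPKM in the ferret and 0.0604 and 0.0337 FPKM in the mouse libraries (log2 difference 1.73, SE 0.076, adjusted p = 1.17e-08 by limma). None of these genes came near the level of Clu in either species. Apoa1, Apoa2, Apoa4, Apoc3 and Apom were below 1 FPKM in both species and untested, and Apoc4 was read in the mouse libraries alone.

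Of the 7 other ABC lipid transporters, 4 were called lower and 1 higher in ferret astrocytes, against 30.1% and 13.1% of all tested genes. Abca3, Abca5, Abca9 and Abcg4 were the lower genes. Abca3, a phospholipid transporter of lysosome-related organelles, had 3.56 and 3.55 FPKM in the ferret and 30.1 and 31.5 FPKM in the mouse libraries (log2 difference -2.80, SE 0.066, adjusted p = 2.12e-10 by limma). The mean FPKM of Abca3 was 8.67-fold higher in mouse astrocytes, and those of Abca9 and Abca5, which were below 1 FPKM in the ferret, were 70.3-fold and 15.9-fold higher. These larger ratios rest on ferret values near 0, which for Abca9 were 0.0133 and 0.0702 FPKM. The log2 differences of Abca9 and Abca5 were -1.92 and -2.29, smaller in size than that of Abca3. Abcg4, the transporter most like Abcg1, had 1.27 and 1.29 FPKM in the ferret and 3.97 and 4.19 FPKM in the mouse libraries, the opposite direction to Abcg1, and its call was lost with the libraries rescaled to equal sums, at -0.89, and after quantile normalization, at -0.73. Abcb4, an exporter of phosphatidylcholine, had 17.7 and 17.9 FPKM in the ferret and 0.972 and 1.01 FPKM in the mouse libraries, with a log2 difference of 3.24 (SE 0.072, adjusted p = 1.45e-10 by limma). Abca2 and Abca7 were not called, with log2 differences of -0.94 and 0.04.

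The lipoprotein receptors did not share a direction. Of 12 lipoprotein and sorting receptors, 4 were called higher and 4 lower in ferret astrocytes, against 13.1% and 30.1% of all tested genes. The higher genes were Vldlr, Lrp8, Sorcs2 and Sorcs3, and the lower genes were Lrp1, Lrp4, Cd36 and Sorl1. With the libraries rescaled to equal sums Scarb1 was called higher as well. This made 5 higher and 4 lower, against 19.1% and 21.7% of all tested genes. Vldlr, a receptor of apolipoprotein E particles and of reelin, had 85.3 and 92.7 FPKM in the ferret and 4.53 and 3.96 FPKM in the mouse libraries (log2 difference 4.10, SE 0.075, adjusted p = 5.27e-11 by limma). Lrp8, the apolipoprotein E receptor 2, had 40.4 and 45.0 FPKM in the ferret and 12.5 and 13.9 FPKM in the mouse libraries, with a log2 difference of 1.62. Scarb1, a receptor of high-density lipoproteins, had 22.8 and 23.9 FPKM in the ferret and 13.1 and 12.0 FPKM in the mouse libraries. All ferret libraries were above all mouse libraries for each of these receptors.

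Lrp1, the large endocytic receptor that binds apolipoprotein E among many ligands, was lower in ferret astrocytes. It had 22.9 and 22.8 FPKM in the ferret and 81.4 and 76.7 FPKM in the mouse libraries (log2 difference -1.74, SE 0.060, adjusted p = 2.11e-09 by limma). Lrp4, a receptor with roles at synapses, had 2.74 and 2.92 FPKM in the ferret and 30.4 and 30.1 FPKM in the mouse libraries. Cd36, a scavenger receptor and fatty acid transporter, had 0.0580 and 0.0583 FPKM in the ferret and 4.28 and 3.21 FPKM in the mouse libraries. Lrp2, Lrp10 and Sorcs1 were not called.

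The sorting receptors of the Vps10p family, to which Sort1 belongs, did not share a direction. Sorl1, which sorts the amyloid precursor protein and binds apolipoprotein E, had 1.48 and 1.15 FPKM in the ferret and 30.4 and 30.7 FPKM in the mouse libraries, with a log2 difference of -3.77 (SE 0.084, adjusted p = 1.49e-10 by limma). Sorcs2 had 14.0 and 14.7 FPKM in the ferret and 4.59 and 4.81 FPKM in the mouse libraries, and Sorcs3 had 6.45 and 7.07 FPKM in the ferret and 0.0112 and 0 FPKM in the mouse libraries. Sort1 and Sorl1 were thus higher in mouse astrocytes, and Sorcs2 and Sorcs3 were higher in ferret astrocytes.

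Regulators of the receptors held 1 higher and 1 lower gene of 2 tested, against 13.1% and 30.1% of all tested genes. Mylip encodes a ubiquitin ligase that targets lipoprotein receptors such as Vldlr and Lrp8 for degradation, and it was itself higher in ferret astrocytes, with 22.0 and 25.3 FPKM against 4.41 and 4.24 FPKM (log2 difference 2.21, SE 0.081, adjusted p = 3.45e-09 by limma). Snx17, which returns Lrp1 from endosomes to the surface, had 20.9 and 21.7 FPKM in the ferret and 46.1 and 47.5 FPKM in the mouse libraries, and its log2 difference of -1.10 became -0.72 after either other scaling, which ended the call.

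Of the lipases and their partners, Angptl4 stood apart among the 3 genes tested. Angptl4 encodes a secreted inhibitor of lipoprotein lipase, and it had 185 and 210 FPKM in the ferret and 6.60 and 6.41 FPKM in the mouse libraries (log2 difference 4.73, SE 0.071, adjusted p = 1.94e-11 by limma). On the log2(FPKM + 1) scale this was the largest absolute difference of the 37 genes, whereas with a pseudocount of 0.1 it was 4.90, below the size of those of Sorcs3 (6.02), Apoc2 (-5.26) and Apoh (-5.07), which were near 0 in a species. In the ferret libraries Angptl4 exceeded its target Lpl, at 2.92 and 2.60 FPKM, many times over. Lipa, the acid lipase of lysosomes, and Lmf1, a maturation factor of lipases, were not called, with log2 differences of -0.76 and -0.47. Lipg and Lipc were below 1 FPKM in both species and Gpihbp1, which anchors lipoprotein lipase on capillaries, was listed at 0 in all 4 libraries.

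Sterol handling genes included 1 higher and 3 lower genes of 9 tested, against 13.1% and 30.1% of all tested genes. Npc2, the soluble protein that binds cholesterol in lysosomes, had 410 and 463 FPKM in the ferret and 98.9 and 98.8 FPKM in the mouse libraries (log2 difference 2.13, SE 0.069, adjusted p = 1.55e-09 by limma). Its membrane partner Npc1 was not called, at 13.1 and 14.1 FPKM against 16.3 and 17.2 FPKM. Soat1, which makes cholesteryl esters for storage, had 15.9 and 17.0 FPKM in the ferret and 59.7 and 62.8 FPKM in the mouse libraries. Nceh1, which splits such esters, had 4.34 and 4.75 FPKM in the ferret and 20.8 and 21.7 FPKM in the mouse libraries, so genes for both steps were lower in ferret astrocytes. Mttp, a transfer protein for the assembly of Apob particles, was not called, at 8.68 and 8.28 FPKM against 5.88 and 6.14 FPKM.

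Nr1h3 and Nr1h2 encode the liver X receptors, nuclear receptors for oxysterols that are known to drive Abca1, Abcg1, Apoe and Mylip together with retinoid X receptors. Nr1h3 had 1.11 and 0.884 FPKM in the ferret and 6.86 and 7.10 FPKM in the mouse libraries (mean FPKM 7.02-fold higher in the mouse, adjusted p = 8.19e-09 by limma). Nr1h2, Rxra and Rxrb were not called, with log2 differences of -0.73, -0.22 and -0.81. Among the genes named here as driven by these receptors, Abcg1 and Mylip were higher and Apoe was lower in ferret astrocytes.

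**Figure D4:**
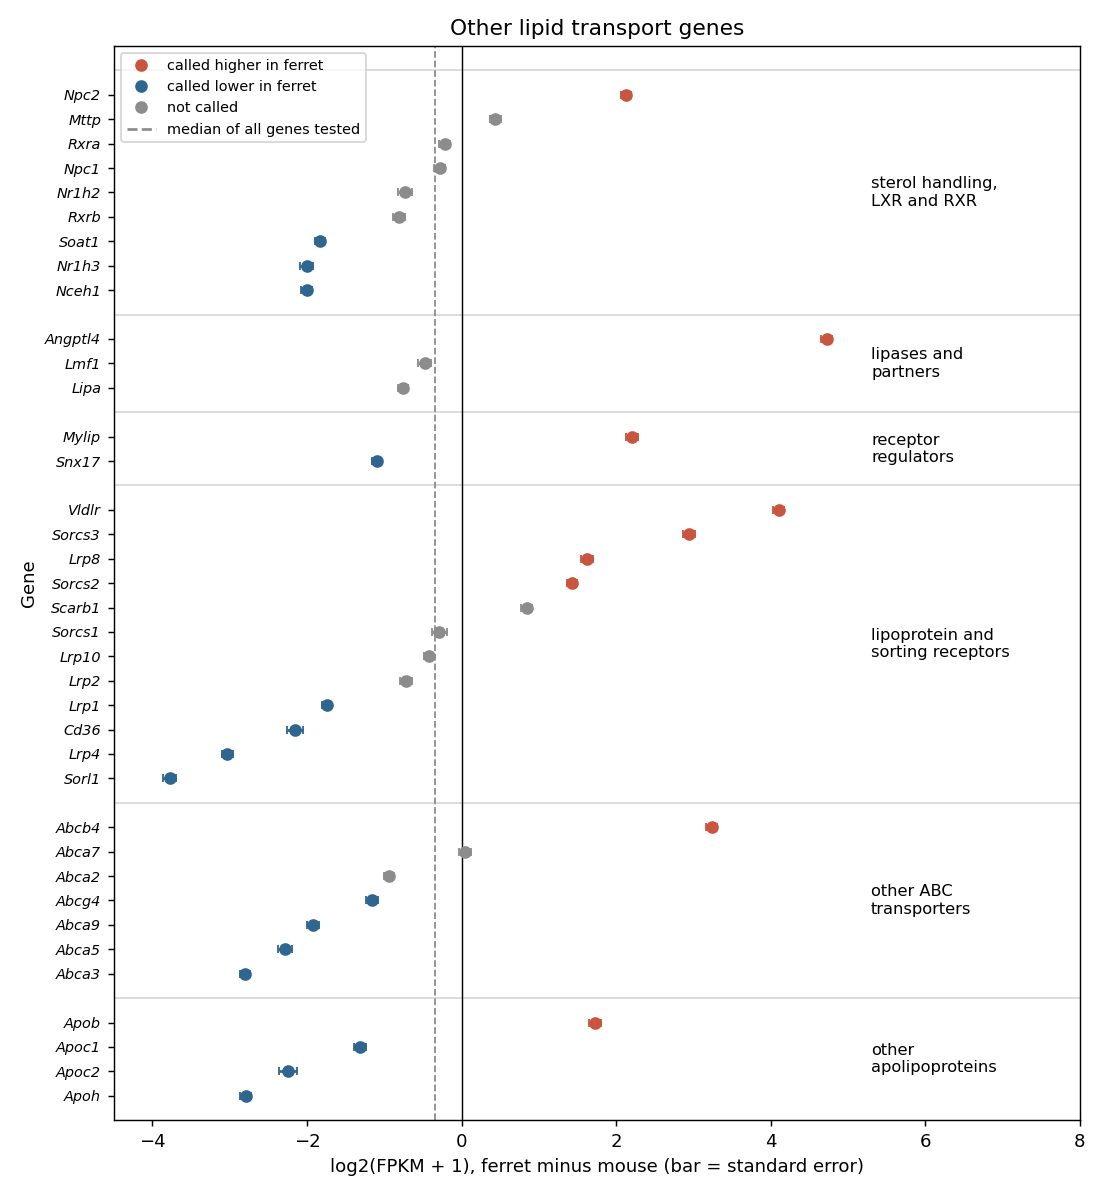
Difference between ferret and mouse astrocytes in log2(FPKM + 1), with SE, for the 37 other lipid transport genes tested, grouped by role. Red points mark the 9 genes called higher and blue points the 15 genes called lower in ferret astrocytes, and the dashed line is the median of all tested genes at -0.35. Angptl4 and Vldlr lie farthest to the right and Sorl1 farthest to the left.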

How the data were processed

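Each library was deposited as 1 table of gene symbols and FPKM. The authors aligned paired reads with STAR 2.7.0f to the Ensembl genome of each species (GRCm38 for the mouse) and computed the deposited FPKM with Cufflinks 2.2.1, which normalizes to mapped fragments and exon length. These values hold no counts. Ratios of low FPKM values between duplicates gave a relative depth of 1.17 for ferret replicate 1 against replicate 2, from a mode with 17.0% of low genes, and no clear mode in the mouse (6.58% against 6.47% in the next bin).

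Symbols were joined in upper case, and log2(FPKM + 1) was fitted by limma 3.58.1 under R 4.3.3, with trended empirical Bayes, for the 10204 shared genes with a mean of at least 1 FPKM in a species, with Benjamini-Hochberg adjustment over all of them. The fit was tested on data simulated with independent noise, few changed genes and no general shift between the species. The real libraries had such a shift and many called genes, so the simulation does not check the p-values printed here. An exact permutation test of 2 against 2 libraries cannot go below a two-sided p of 0.333. Joins and figures used Python 3.11.15. Mouse positions come from a GENCODE annotation of GRCm38, in another release than the one the authors used.

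Genes named were the 10 members, the list of 46 other lipid transport genes, the 5 genes nearest Apoe and cell type markers. Members and lists were chosen with earlier results of these data known. Alternatives were a pseudocount of 0.1, no filter, rescaling to equal sums over shared symbols, quantile normalization, a block for the replicate number, summed values for a symbol with several rows, and each library left out in turn. Some genes of lipid transport are not reported here. No ferret genome and no read counts were used here.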

Additional observations from a re-analysis of the deposited data

How the results depend on the processing

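No called difference of the 8 lipid genes or of the 37 other lipid transport genes changed sign under the alternatives run. Leaving out each library in turn kept the difference of Apoe between -7.99 and -7.86 and that of Abcg1 between 2.12 and 2.27, and changed no call among these genes. Rescaling to equal sums and quantile normalization moved all 8 lipid genes by more than the spread between duplicates, towards the ferret. Among the 37 other genes, 2 calls were lost and 1 gained with equal sums (lost, Abcg4 and Snx17, and gained, Scarb1), 3 were lost and 1 gained after quantile normalization (Apoc1 lost as well), and Abca2 and Lrp2 were gained with a pseudocount of 0.1, at -1.02 and -1.27. Of all tested genes, 1336 were called higher and 3069 lower in ferret astrocytes, against 2107 and 2040 after quantile normalization and 1954 and 2215 with equal sums.

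The replicate numbers are shared by the species in the labels alone, and the deviations of same-numbered libraries correlated at 0.0099 across genes, so the numbers were not taken to pair libraries. With the replicate number as a block, 1342 genes were called higher and 3072 lower, and no call among the lipid genes changed. Depth was not analysed here beyond the ratio between duplicates, and values under 1 FPKM carry no interval.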
